A study of Mus musculus with 24 samples.

Results

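The genes of the cytosolic ribosome were followed in naive CD4 T cells with and without Raptor. Members were chosen by symbol: probe sets listed with 1 gene whose symbol begins with Rpl, Rps or Rplp and a digit, or is Rpsa, without the Rps6k kinases and without pseudogenes. Each gene was represented by its brightest probe set over all 24 arrays. The rule gave 72 of the 17097 genes on the arrays, from 135 probe sets. By name, 24 are proteins of the small subunit, 38 of the large subunit and 3 of its stalk. Another 6 are paralogues that stand beside a main gene (Rpl22l1, Rps27l, Rpl39l, Rpl3l, Rpl7l1 and Rpl36al), and 1, Rps19bp1, encodes a protein that binds Rps19 and is not itself a part of the ribosome. Some ribosomal protein genes, such as Rpl5 and Rps27, were not analysed here.

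Cells with the surface markers CD4+CD62LhiCD44loCD25- were sorted from spleen and lymph nodes of mice. The wild-type groups carry the label WT and the strain C57BL/6. The other groups carry the genotype CD4(cre)Raptor(fl/fl), with no strain given, and are called Raptor-deficient here. In such mice a Cre recombinase under the Cd4 promoter deletes the floxed gene in T cells. Each genotype was measured unstimulated and after 8 h or 24 h of stimulation by plate-bound anti-CD3 and anti-CD28, with 4 samples in each of the 6 groups. The age of the mice is not given in the sources used here. The labels do not say whether the 4 samples of a group came from separate mice, so every p-value here rests on a sample-to-sample spread that may be technical.

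Cytosolic ribosomes are built from ribosomal RNA and about equal amounts of each core protein, and T cells build many of them when they leave quiescence. The mRNAs of ribosomal proteins typically begin with a run of pyrimidines, the 5′ terminal oligopyrimidine (TOP) motif. Through it the kinase complex mTORC1, of which Raptor is the defining subunit, is known to control their translation. Arrays of total RNA measure mRNA level and not translation.

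The start regions of some members are shown first, since the pyrimidine run is the feature by which these mRNAs are known. RefSeq windows (GRCm38.p6, 250 bases before to 50 bases after an annotated start) were found for 58 of the 72 members, 69 windows in all. A pyrimidine run of at least 7 bases that came within 5 bases of the start was present in 25 of the 69 windows (36.2%), against 14.2% of 16953 windows of all genes on the arrays. Where several starts are annotated, the one with the longest run is shown. The windows below hold 10 bases before and 20 bases from the start on, in the direction of the gene, with capitals for such a run.
Rps6, chr4:86857348-86857377, minus strand: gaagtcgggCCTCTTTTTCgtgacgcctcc
Rpl13a, chr7:45128726-45128755, minus strand: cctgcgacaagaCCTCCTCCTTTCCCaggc
Rps26, chr10:128626487-128626516, minus strand: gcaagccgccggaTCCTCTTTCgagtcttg
Rpl14, chr9:120571507-120571536, plus strand: ggCCCTCTCTCTTCTCgctgagcgccgcca
Rpl22l1, chr3:28805498-28805527, plus strand: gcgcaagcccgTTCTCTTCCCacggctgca
Rps27l, chr9:66946076-66946105, plus strand: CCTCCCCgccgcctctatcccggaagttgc
Rps7, chr12:28635934-28635963, minus strand: cggtttccacccacctacttccgctgtccc
Rps4x, chrX:102189372-102189401, minus strand: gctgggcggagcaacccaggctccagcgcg
Rpl7l1, chr17:46782637-46782666, minus strand: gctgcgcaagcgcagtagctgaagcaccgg
Rps19bp1, chr15:80264287-80264316, minus strand: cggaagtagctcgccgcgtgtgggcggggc
These 10 genes were chosen because the results below turn on them, or, for Rps6, because the protein is the best known target of the kinases that mTORC1 activates. Annotated starts need not be the starts used in T cells, so a window without a run says only that these letters are not near that start.

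Of 5 motifs searched on both strands of the 300-base windows, TCTCGCG and CCGGAAG were the furthest from the background. TCTCGCG lay in 14 of 69 member windows (20.3%), against 3.95% of the windows of genes on the arrays. CCGGAAG lay in 37.7% against 13.0%, GGGCGG in 60.9% against 52.3%, CACGTG in 11.6% against 8.72% and TATAAA in 10.1% against 9.99%. No searched motif holds another. Windows of several annotated starts of Rps19 are among the 14. Of the members with TCTCGCG on the gene's strand, Rpl26, Rpl7a, Rps2 and Rps28 are not shown and were not called between genotypes. TCTCGCG is shown in capitals, with 10 bases on each side, for 3 genes that differed between genotypes and for Rps6.
Rps19, chr7:24884574-24884600, plus strand: cactccgaaaTCTCGCGagactcgacg
Rpl12, chr2:32961648-32961674, plus strand: ggccagcggtTCTCGCGagagctgagc
Rps15a, chr7:118116197-118116223, minus strand: gaccatgaagTCTCGCGatagcgcttc
Rps6, chr4:86857402-86857428, minus strand: cgccggctgtTCTCGCGagaacttaga
These matches describe letters in the windows and were not tested as binding sites.

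Most members sat at the top of the array's scale. The deposited log2 intensities ran from 1.64 to 13.79, and 99% of them lay under 11.06. Of the 72 members, 64 had means above 11.06, between 11.48 and 13.38. The 8 others were Rpl22l1 (10.87), Rps27l (9.69), Rps19bp1 (8.21), Rpl14 (7.74), Rpl7l1 (7.72), Rps15a (5.94), Rpl39l (5.66) and Rpl3l (3.57). Brightness depends on the probes as well as on the mRNA, so the low values of Rpl14 and Rps15a, which are core proteins, are not read as low mRNA. The median of all values was 5.22, and Rps15a, Rpl39l and Rpl3l lie near or under it. The division into bright and dimmer members was made after the values were seen.

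**Figure D1:**
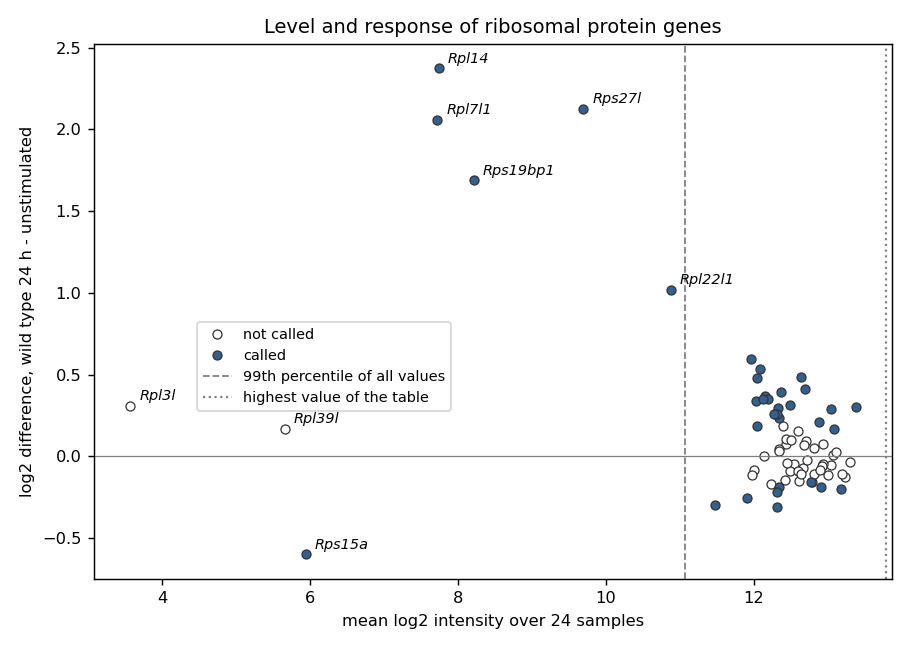
Mean log2 intensity of each of the 72 members over 24 samples (x axis) against its log2 difference between wild-type cells at 24 h and unstimulated wild-type cells (y axis); filled points were called. The 64 bright members lie to the right of the 99th percentile of all values with differences between -0.31 and 0.60, and the rises above 1 on the log2 scale belong to 5 dimmer members.

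A few samples stood apart. Replicate 1 of unstimulated Raptor-deficient cells had a residual SD of 0.280 over all genes, against 0.119 to 0.222 in the other 23 arrays. Replicate 1 of both 24 h groups held liver transcripts, with Alb, the albumin gene, at 9.02 and 9.11 against 6.22 to 6.42 in the others at that time. Rptor, the targeted gene, was lower in Raptor-deficient cells at 8 h (-1.01 ± 0.18, adjusted p = 0.000292) and at 24 h (-0.64 ± 0.18, adjusted p = 0.0109); before stimulation the difference of -0.62 ± 0.18 was not called (adjusted p = 0.0750). Whether its probes lie in the deleted stretch is not given in the sources used here.

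Before stimulation few of these genes separated by genotype. None of the 72 members was called (limma, Benjamini-Hochberg adjusted p under 0.05 over all 17097 genes), where 1.94% of all genes were called (0.702% higher, 1.24% lower). At an unadjusted p under 0.05, 8 members were higher and 1 was lower in Raptor-deficient cells. The share of all genes past that unadjusted threshold is not given here, so these 2 counts have no background. The median difference, Raptor-deficient minus wild type, was 0.05 on the log2 scale, against -0.01 over all genes. It was above 0 for 53 of 72 members, against 46.3% of all genes. The samples of the genotypes did not overlap for 7 members, all higher in Raptor-deficient cells (2.01% of all genes were higher so, 3.47% lower). Rps6 lay at 13.02, 13.02, 13.02 and 12.99 in wild-type and at 13.39, 13.09, 13.06 and 13.06 in Raptor-deficient samples. The groups do not overlap, and the highest value is that of replicate 1, the array that stood apart. The difference of 0.13 ± 0.07 (SE) was not called (adjusted p = 0.442).

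In the stimulated groups members were called in both directions. At 8 h, 8 members were higher and 5 were lower in Raptor-deficient cells, 18.1% of the 72, where 12.9% of all genes were called (4.14% higher, 8.77% lower). At 24 h, 10 were higher and 3 were lower, again 18.1%, where 21.5% of all genes were called (8.35% higher, 13.1% lower). The total share called was above that of all genes at 8 h and under it at 24 h, and in both cases more members were higher than lower. Of the 72 members, 56 at 8 h and 55 at 24 h had a difference above 0, against 52.8% and 52.0% of all genes. All 4 Raptor-deficient samples lay above all 4 wild-type samples for 27 members at 8 h and for 37 at 24 h, where 6.66% and 12% of all genes did so. They lay below for 6 and 4 members (12.5% and 16.5% of all genes). The median difference of the members was 0.09 and 0.08 on the log2 scale, against 0.01 and 0.01 over all genes.

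The members that were higher were bright ones, with the exception of Rps15a at 24 h. Of the 64 bright members, 8 were higher and 1 was lower at 8 h, and 9 were higher at 24 h. The higher calls were small differences, from 0.23 to 0.39 at 8 h and from 0.17 to 0.37 at 24 h. At both times 7 genes were higher: Rpl13a, Rps19, Rps14, Rpl17, Rps4x, Rpl8 and Rps7. Before stimulation their differences, none of them called, were 0.23, 0.14, 0.06, 0.18, 0.12, 0.07 and 0.24 in the same order. The difference in response to stimulation, given below, was called for none of them. Rpl12 was called at 8 h only, and Rpl10, Rpl35a and the dimmer Rps15a at 24 h only. The change of the genotype difference from 8 h to 24 h was called for none of the 72 members (4.53% of all genes). These lists therefore do not show that a gene differed between the times.

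Rpl13a, a large-subunit protein also known for silencing translation of inflammatory mRNAs, was at 11.21, 11.20, 11.23 and 11.09 in wild-type samples at 8 h. In the Raptor-deficient samples it was at 11.50, 11.63, 11.62 and 11.42, above every wild-type value. The difference was 0.36 ± 0.08 (SE, 1.28-fold, adjusted p = 0.00368) at 8 h and 0.28 ± 0.08 (1.21-fold, adjusted p = 0.0148) at 24 h. Its only probe set gave both values.

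Rps19, a small-subunit protein mutated in the inherited anaemia of Diamond and Blackfan, was at 11.72, 11.66, 11.64 and 11.74 in wild-type samples at 24 h. The Raptor-deficient samples were at 12.09, 12.05, 12.02 and 12.08. The groups are apart by more than the range within either. It was 1.27-fold higher in Raptor-deficient cells at 8 h (0.34 ± 0.09, adjusted p = 0.0103) and 1.29-fold at 24 h (0.37 ± 0.09, adjusted p = 0.00323).

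Rps14, another small-subunit protein, was at 12.11, 12.12, 12.11 and 12.10 in wild-type samples at 24 h and at 12.39, 12.34, 12.41 and 12.42 in Raptor-deficient ones. It differed by 0.29 ± 0.07 at 8 h (adjusted p = 0.00890) and by 0.28 ± 0.07 at 24 h (adjusted p = 0.00621). The 2 differences are close in size. The only probe set of Rps14 may cross-hybridise. Rpl17 had the largest difference of the bright members at 8 h, 0.39 ± 0.07 (1.31-fold, adjusted p = 0.000582), with wild-type samples at 12.09, 12.09, 11.97 and 12.02 and Raptor-deficient samples at 12.45, 12.47, 12.43 and 12.38. This holds for a probe set that may cross-hybridise; another Rpl17 probe set, with a mean of 8.36, gave 0.15 at 8 h and -0.043 at 24 h, neither of them called.

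Rpl8, a large-subunit protein close to the catalytic centre, was higher by 0.27 ± 0.06 at 8 h (adjusted p = 0.00570) and by 0.20 ± 0.06 at 24 h (adjusted p = 0.0245). Rps4x, encoded on the X chromosome, was 1.18-fold and 1.17-fold higher, and Rps7 1.17-fold and 1.19-fold. Rpl12, at the base of the stalk, was 1.21-fold higher at 8 h. Rps15a, the exception among the higher members by its dim probe set, was at 5.30, 5.53, 5.46 and 5.36 in wild-type samples at 24 h and at 5.98, 5.95, 5.87 and 5.84 in Raptor-deficient ones (0.50 ± 0.12, 1.41-fold, adjusted p = 0.00229). These values lie close to the median of all values.

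**Figure D2:**
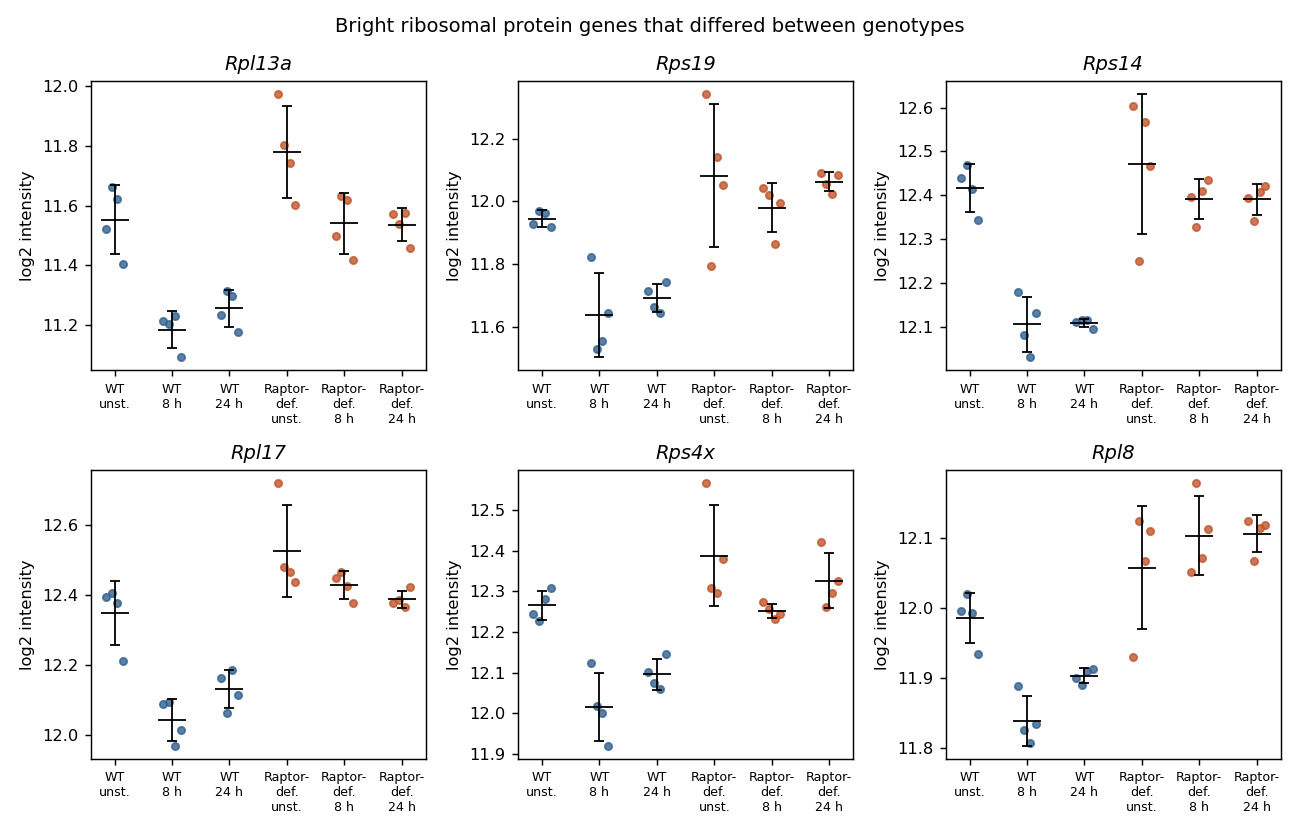
Log2 intensity (y axis, a separate scale for each gene that does not start at 0) of 6 bright members in each of 24 samples; points are samples, wide bars the mean and narrow bars the SD of 4 samples. At 8 h and at 24 h the Raptor-deficient samples lie above the wild-type samples of the same time for each of the 6 genes, and the spread is widest in unstimulated Raptor-deficient cells.

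Rps6 itself was not called between genotypes, with differences of 0.13 ± 0.07 at 8 h (adjusted p = 0.319, 95% interval -0.03 to 0.28) and 0.11 ± 0.07 at 24 h (adjusted p = 0.335). The stalk proteins Rplp0, Rplp1 and Rplp2, which recruit the elongation factors, had differences of 0.19, 0.12 and 0.10 at 8 h and 0.21, 0.06 and 0.16 at 24 h. For these 3 genes the samples of the genotypes did not overlap at either time, yet none passed the test over all genes (adjusted p between 0.0851 and 0.598). Rpsa, also known as a laminin receptor, gave 0.13 and 0.12 with adjusted p = 0.265 and 0.272. Rpl11, which can bind and restrain Mdm2, gave -0.07 and -0.06 with adjusted p = 0.636 and 0.677.

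The members that were lower in Raptor-deficient cells were mainly the paralogues and dimmer genes. At 8 h these were Rps27l, Rpl14, Rpl7l1, Rps19bp1 and Rpl36al, and at 24 h Rps27l, Rpl14 and Rps19bp1. Rps27l, the paralogue of Rps27 and a target of p53, was at 10.05, 10.44, 10.54 and 10.55 in wild-type samples at 8 h. The Raptor-deficient samples were at 9.76, 9.75, 9.61 and 9.57, all under the wild-type range. It was 1.65-fold lower (-0.72 ± 0.10, adjusted p = 2.2e-05), the largest difference of any member, and 1.28-fold lower at 24 h (-0.36 ± 0.10, adjusted p = 0.0124). Its 2 other probe sets gave -0.87 and -0.82 at 8 h and -0.51 and -0.42 at 24 h, all called over all probe sets.

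Rpl14, a core protein of the large subunit, was at 7.92, 8.03, 8.37 and 8.25 in wild-type samples at 8 h and at 7.53, 7.68, 7.63 and 7.53 in Raptor-deficient ones. The groups do not overlap. It was 1.47-fold lower at 8 h (-0.55 ± 0.12, adjusted p = 0.00295) and 1.43-fold lower at 24 h (-0.51 ± 0.12, adjusted p = 0.00320). It is the one core ribosomal protein called lower, and it has a single probe set.

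Rpl7l1, a nucleolar relative of Rpl7 that acts in the making of the large subunit, was at 8.30, 8.51, 8.59 and 8.53 in wild-type samples at 8 h and at 7.99, 7.97, 8.09 and 7.95 in Raptor-deficient ones. It was 1.40-fold lower at 8 h (-0.48 ± 0.11, adjusted p = 0.00296), and at 24 h the difference of -0.28 ± 0.11 was not called (adjusted p = 0.0722). Its other probe sets gave -0.43 and -0.13 at 8 h, neither called. Rps19bp1, which binds Rps19 and the deacetylase Sirt1, was at 8.82, 8.92, 9.02 and 9.02 in wild-type samples at 8 h and at 8.47, 8.43, 8.54 and 8.54 in Raptor-deficient ones. It was 1.37-fold lower at 8 h (-0.45 ± 0.09, adjusted p = 0.00119) and 1.24-fold lower at 24 h (-0.31 ± 0.09, adjusted p = 0.0146). Rpl36al, the bright paralogue of Rpl36a, was 1.21-fold lower at 8 h (-0.28 ± 0.07, adjusted p = 0.0123) and differed by -0.06 ± 0.07 at 24 h (adjusted p = 0.682).

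**Figure D3:**
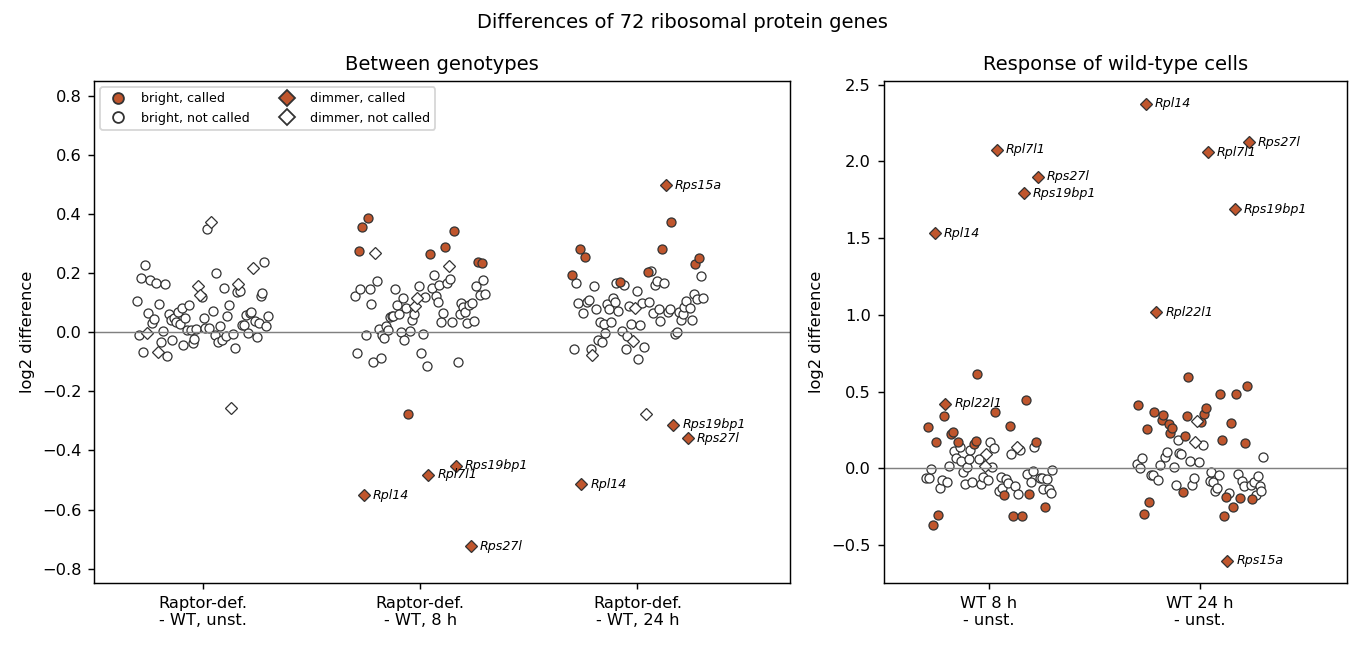
Log2 differences (y axes, on different scales) of all 72 members between genotypes at 3 times (left) and between stimulated and unstimulated wild-type cells (right); each symbol is a gene, circles are bright and diamonds dimmer members, and filled symbols were called. Between genotypes, called circles lie above 0 except for Rpl36al at 8 h, and called diamonds lie below 0 except for Rps15a at 24 h.

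Without unstimulated Raptor-deficient replicate 1, which enters these fits through the shared spread, 11 were higher and 5 lower at 8 h, and 12 were higher and 4 lower at 24 h. The 10 higher calls at 24 h became 6 without wild-type replicate 2, wild-type replicate 4, Raptor-deficient replicate 1 or Raptor-deficient replicate 4 of that time, and without replicate 1 of both 24 h groups 4 were higher and 2 lower, with Rps27l at an adjusted p of 0.0675. Rps7 at 8 h (adjusted p = 0.0490) lost its call in 20 of 35 alternative analyses, Rps4x at 8 h in 8, Rpl35a at 24 h (adjusted p = 0.0498) in 25 and Rpl10 at 24 h in 9.

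In wild-type cells the response to stimulation was uneven between members. At 8 h 18 members were higher and 7 lower than in unstimulated cells, where 18.9% of all genes were higher and 20.8% lower. At 24 h 25 were higher and 9 lower, where 25.4% and 24.3% of all genes were. The difference was above 0 for 36 and 41 of the 72, against 45.3% and 46.1% of all genes. The shares called, 34.7% and 47.2% of the members, were near those of all genes (39.7% and 49.7%). Of the calls, 23 were made in the same direction at both times. Without unstimulated wild-type replicate 4 the count of higher members at 8 h was 11.

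The large rises belonged to the paralogues, Rps19bp1 and Rpl14. Rps27l rose from 8.62, 8.59, 8.48 and 8.29 in unstimulated samples to the values given above at 8 h and to 10.60, 10.57, 10.72 and 10.59 at 24 h. It rose 3.74-fold by 8 h and 4.37-fold by 24 h. Rpl7l1 rose from between 6.18 and 6.74 to between 8.30 and 8.59 at 8 h, 4.22-fold, and was 4.17-fold higher at 24 h. Rps19bp1 rose 3.47-fold by 8 h and 3.22-fold by 24 h. All these groups lie far apart.

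Rpl14 rose from 6.51, 6.93, 6.72 and 6.30 in unstimulated samples to 8.94, 9.08, 8.96 and 8.98 at 24 h, 5.18-fold, the largest rise of any member. It went on rising between 8 h and 24 h (0.84 ± 0.12, adjusted p = 6.33e-06). Rpl22l1, the paralogue of Rpl22, rose later as well, by 0.42 ± 0.11 at 8 h and by 1.02 ± 0.11 at 24 h (2.03-fold), with a further rise between the times (0.60 ± 0.11, adjusted p = 0.000123). Its main gene Rpl22 rose by 0.34 ± 0.09 and 0.37 ± 0.09. Rpl36al rose by 0.62 ± 0.07 and 0.60 ± 0.07, and its main gene Rpl36a by 0.18 ± 0.07 and 0.34 ± 0.07. The muscle paralogue Rpl3l and the testis paralogue Rpl39l, known from those tissues, were not called at either time and have values near or under the median of all values.

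**Figure D4:**
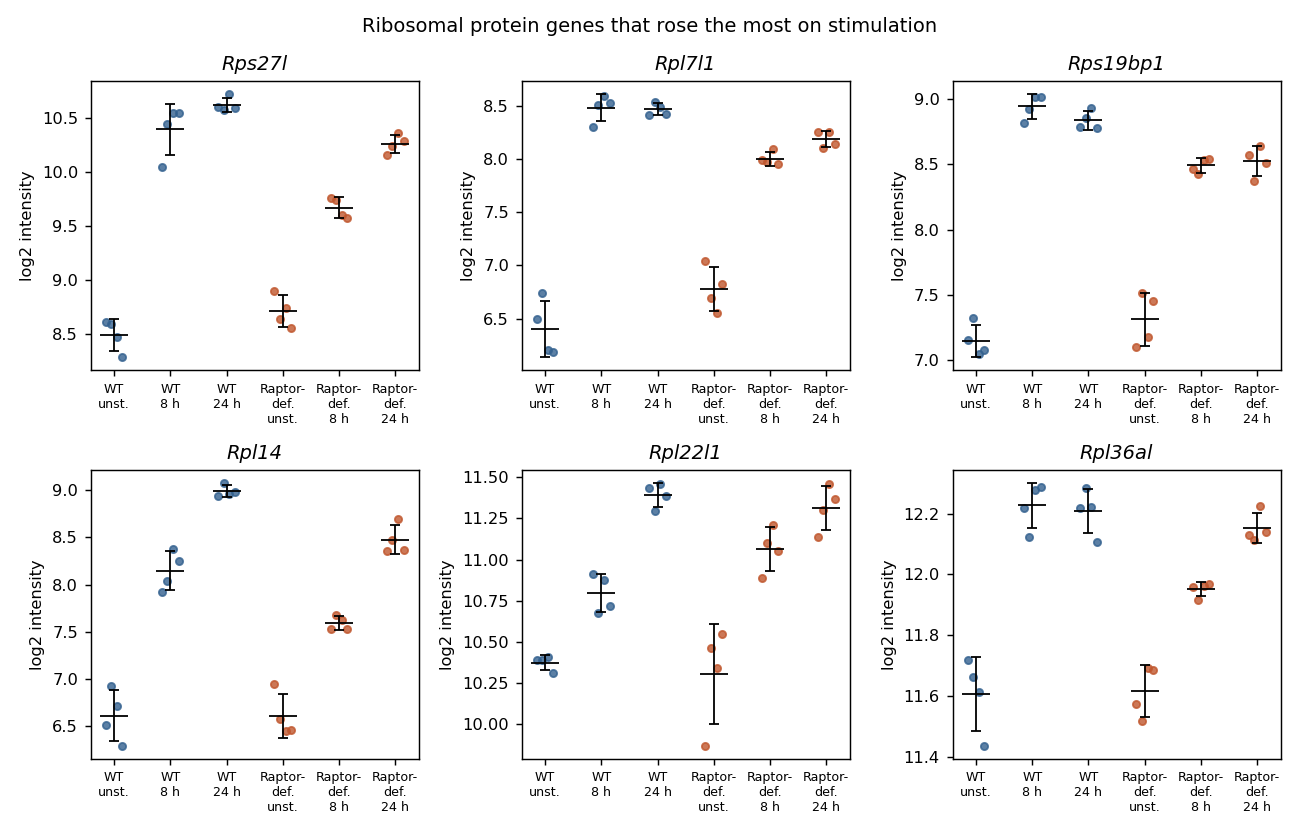
Log2 intensity (y axis, a separate scale for each gene that does not start at 0) of 6 members that rose on stimulation, in each of 24 samples; points are samples, wide bars the mean and narrow bars the SD of 4 samples. At 8 h the Raptor-deficient samples lie below the wild-type samples for Rps27l, Rpl7l1, Rps19bp1, Rpl14 and Rpl36al, but not for Rpl22l1.

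With the chosen probe sets, the changes of bright members in wild-type cells stayed under 0.63 on the log2 scale. These values lie near the top of the array's scale, and whether that limits the size of a change was not tested. Over the alternatives the change at 8 h ran from 0.08 to 0.63 for Rpl11 and from -0.21 to 0.57 for Rpsa. For Rpl17 at 24 h it ran from -0.42 to 0.96. Rps26, a small-subunit protein that contacts the mRNA, rose from 11.88, 11.82, 11.79 and 11.73 to 12.35, 12.33, 12.35 and 12.32 at 24 h (0.54 ± 0.06, adjusted p = 5.43e-08). Rps2 rose by 0.45 ± 0.08 and 0.49 ± 0.08 at 8 h and 24 h, and Rpl11 by 0.27 ± 0.07 and 0.41 ± 0.07. The falls were as small. Rpl13a fell by 0.37 ± 0.08 at 8 h (adjusted p = 0.000613), Rps14 by 0.31 ± 0.07, Rps19 by 0.31 ± 0.09, Rpl17 by 0.31 ± 0.07 and Rps4x by 0.25 ± 0.07. At 24 h Rpl13a, Rps14, Rps19 and Rpl17 were still called lower, by 0.30, 0.31, 0.25 and 0.22, while Rps4x was at -0.17 (adjusted p = 0.0513). Rps15a fell by 0.60 ± 0.12 at 24 h (adjusted p = 8.26e-05) after a difference of 0.14 ± 0.12 at 8 h that was not called.

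The counts of small changes in bright members depended on the normalization. With cyclic loess between arrays the wild-type counts turned from 18 higher and 7 lower to 8 and 37 at 8 h, and from 25 and 9 to 13 and 37 at 24 h. The median of the members moved from 0.0038 to -0.19 at 8 h and from 0.05 to -0.17 at 24 h. Over all genes the median moved from -0.03 to 0.02 at 8 h and from -0.03 to 0.06 at 24 h. The shares of all genes called with cyclic loess, or with the centring below, are not given here. In Raptor-deficient cells the same change turned 15 higher and 1 lower into 7 and 17 at 8 h, and 26 and 1 into 10 and 27 at 24 h. Centring each array on its median gave 21 and 5 at 8 h and 23 and 13 at 24 h in wild-type cells, and 12 and 1, then 21 and 5, in Raptor-deficient cells. The rises of Rps27l, Rpl7l1, Rps19bp1, Rpl14, Rpl22l1 and Rpl36al in wild-type cells kept their calls in all 35 alternatives. The falls of Rpl13a and Rps14 at both times kept theirs in each alternative that measured them. Rps14 was not measured in the alternative without probe sets that may cross-hybridise. The differences between genotypes at 8 h and 24 h were 12 higher and 5 lower, and 11 higher and 3 lower, with cyclic loess, and 6 and 5, and 10 and 3, with centring, so that the higher count at 8 h ran from 6 to 12 over the scalings.

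**Figure D5:**
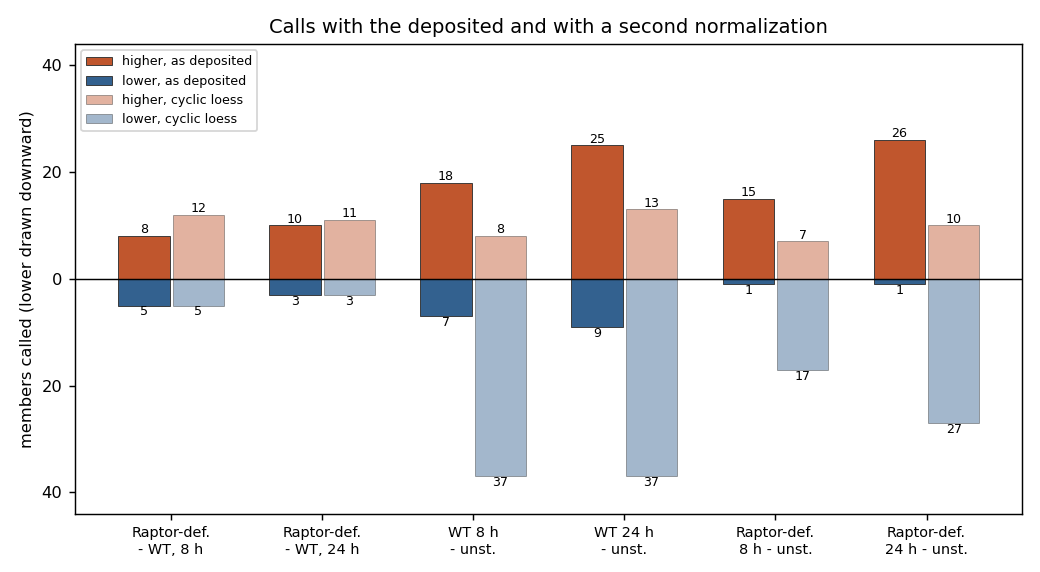
Number of the 72 members called higher (bars upward) and lower (bars downward) in 6 comparisons, with the values as deposited (dark bars) and after cyclic loess between arrays (light bars). Between genotypes at 8 h the counts go from 8 and 5 to 12 and 5, and in wild-type cells at 8 h they turn from 18 and 7 to 8 and 37. The shares of all genes called are not drawn.

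In Raptor-deficient cells the leading members rose as well, and 3 of them rose by less than in wild type. At 8 h 15 members were higher and 1 lower than in unstimulated Raptor-deficient cells, where 16% and 16.8% of all genes were (32.8% in all), and at 24 h 26 were higher and 1 lower, where 21.6% and 17.5% of all genes were (39.1% in all). The difference was above 0 for 45 and 49 of the 72, against 50.4% and 48.9% of all genes. Leaving out unstimulated replicate 2 or 8 h replicate 3 of this genotype left 9 higher at 8 h, and without unstimulated replicate 1 the single lower gene, Rpl13a, was called at neither time. Its call at 8 h was also lost without replicate 1 or 4 of that time, and its call at 24 h without replicate 4. Rps27l rose 1.94-fold by 8 h and 2.93-fold by 24 h, Rpl7l1 2.33-fold and 2.66-fold, Rps19bp1 2.26-fold and 2.32-fold, and Rpl14 1.98-fold and 3.64-fold. Between 8 h and 24 h in these cells 7 members rose and 1 fell (15.2% and 7.81% of all genes, 23% in all), among them Rps27l, by 0.59 ± 0.10. In wild-type cells 4 rose and 1 fell over the same interval (17.4% and 11% of all genes, 28.3% in all), and Rps27l gave 0.22 ± 0.10 (adjusted p = 0.111).

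The difference of the responses was itself tested. At 8 h 3 members had a smaller response in Raptor-deficient cells, where 6.29% of all genes had a called difference in response (1.94% higher, 4.36% lower): Rps27l by -0.94 ± 0.15 (adjusted p = 0.000265), Rpl7l1 by -0.85 ± 0.15 (adjusted p = 0.00115) and Rps19bp1 by -0.61 ± 0.13 (adjusted p = 0.00477). At 24 h the same 3 genes were called, by -0.57, -0.65 and -0.48, and Rps15a in the other direction by 0.75 ± 0.16 (adjusted p = 0.00234), where 13.3% of all genes were called (5.26% higher, 8.01% lower). Each of these 7 calls was kept in all 35 alternatives. For Rps15a, whose values lie close to the median of all values, the difference ran from 0.58 to 0.88 over them. Rpl14 gave -0.55 ± 0.18 and -0.51 ± 0.18 and was not called (adjusted p = 0.0622 and 0.0549). None of the bright members had a called difference in response at 8 h or 24 h by limma; for Rpl13a, Rps19, Rps14, Rpl17 and Rps4x the values at 8 h were 0.13, 0.21, 0.23, 0.21 and 0.11, with adjusted p between 0.213 and 0.604. Over all members, 4 were higher and 7 lower at an unadjusted p under 0.05 at 8 h, and 2 and 4 at 24 h. The shares of all genes in this paragraph are for adjusted calls, and those at the unadjusted threshold are not given here. For the change between 8 h and 24 h no difference in response was called by limma (2 higher and 1 lower at an unadjusted p under 0.05), where 4.53% of all genes were (1.33% higher, 3.2% lower). These comparisons share samples with those between genotypes, so the values are given side by side and not as separate evidence.

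By role, the small-subunit genes had a median difference between genotypes of 0.11 at 8 h and 0.09 at 24 h, with 23 and 22 of 24 above 0. The large-subunit genes had 0.05 and 0.08, with 27 and 29 of 38 above 0. The 6 paralogues had -0.09 and -0.07, with 3 and 1 above 0. In wild-type cells at 24 h the medians were -0.10, 0.08 and 0.81 in the same order, against -0.03 over all genes. These medians are descriptions of the groups and were not tested against each other.

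The chosen probe set is not the only one for 34 members, which have 63 others. Between genotypes 1 of the others was higher and 2 were lower at 8 h, where 3.86% and 6.25% of all probe sets were. At 24 h 4 were higher and 2 lower, where 9.9% and 10% of all probe sets were. At each time the pairs called together were the 2 others of Rps27l, in the same direction. The remaining calls were made where the chosen probe set was not called: Rps21 at 8 h (0.23), and Rpl13 (0.64), Rpl22 (0.72), Rpl23 (0.37) and Rpl37 (0.22) at 24 h, all higher in Raptor-deficient cells. In wild-type cells against unstimulated cells, where both were called, 13 pairs of probe sets had the same direction at 8 h and 1 the opposite, and at 24 h 21 had the same and 1 the opposite. The opposite pair is that of Rpl17, whose probe set of mean 8.36 rose by 0.42 and 0.96 where the bright one fell. In Raptor-deficient cells at 24 h 11 pairs had the same direction and 1 the opposite, that of Rpl13 (-0.91 for the other and 0.23 for the chosen probe set). For 24 h against 8 h in wild-type cells 7 others were higher and 8 lower, where 12.8% and 15.1% of all probe sets were. None of these was called together with its chosen probe set. Of the chosen probe sets, 16 carry the suffix for probes that may match other sequences. Ribosomal protein genes have many processed copies in the genome, and RNA from such copies cannot be told apart from that of the gene.

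Genes that surround the ribosome were counted by list. Of 36 measured genes of ribosome biogenesis, 35 rose in wild-type cells by 8 h and 34 by 24 h, with median rises of 2.17 and 1.91. In Raptor-deficient cells 19 were lower than in wild type at 8 h and 11 at 24 h, with medians of -0.33 and -0.27. That is 52.8% and 30.6% of the list, where 8.77% and 13.1% of all genes were lower; in wild-type cells 18.9% and 25.4% of all genes rose. Ubtf, a factor of ribosomal RNA transcription, differed by -0.65 and Polr1b, a subunit of RNA polymerase I, by -0.60 at 8 h. Nop2, a ribosomal RNA methyltransferase, differed by -0.57 at 8 h and -0.55 at 24 h. The count at 24 h ran from 7, without replicate 1 of both 24 h groups, to 21, with only the compared groups in the fit.

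Of 11 measured chaperones and importins of ribosomal proteins, 6 were lower in Raptor-deficient cells at 8 h and 4 at 24 h, while 8 and 9 rose in wild-type cells. The lower calls are 54.5% and 36.4% of this list, against 8.77% and 13.1% of all genes. In wild-type cells 18.9% and 25.4% of all genes rose. Heatr3, a chaperone of newly made ribosomal protein, differed by -0.65 and -0.64, and the import receptor Ipo7 by -0.27 and -0.46. Without wild-type replicate 3 at 8 h the count there was 3.

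Of 16 other TOP mRNAs, 3 were higher and 2 lower at 8 h, and again 3 and 2 at 24 h. This is 31.2% of the list at each time, where 12.9% and 21.5% of all genes were called. Fau, which encodes the small-subunit protein Rps30 fused to a ubiquitin-like protein, was higher by 0.28 and 0.20, and the elongation factor Eef2 by 0.21 and 0.23. Npm1, a nucleolar chaperone, was lower by -0.25 and -0.24. Leaving out any single 24 h sample left 1 of the 3 higher calls at that time, and the 3 at 8 h fell to 1 without wild-type replicate 3 or 4 or Raptor-deficient replicate 1 or 4. The 2 lower calls fell to 1 at 8 h without wild-type replicate 2 or Raptor-deficient replicate 1, to 0 at 8 h without wild-type replicate 3, and to 1 at 24 h without Raptor-deficient replicate 4.

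Of 15 genes that link mTORC1 to translation, 2 were higher and 3 lower at 8 h and 1 and 2 at 24 h, with the targeted gene Rptor among the lower ones. The share called was 33.3% at 8 h, against 12.9% of all genes, and 20% at 24 h, near the 21.5% of all genes. Pdcd4, an inhibitor of the helicase Eif4a1, was higher by 0.38 and 0.62, and Eif4a1 itself was lower by -0.31 and -0.24. Eef2k was called lower at 8 h only, by -0.65. The 2 higher calls at 8 h were lost without wild-type replicate 3, wild-type replicate 4 or Raptor-deficient replicate 4, and 1 was left without replicate 1 of either genotype. The 2 lower calls at 24 h, Rptor and Eif4a1, were lost without replicate 1 of both 24 h groups. Of 7 genes of the p53 arm, 1 was higher and 2 lower at 8 h and 3 were higher at 24 h (42.9% of the list at each time), among them Cdkn1a, a cell-cycle inhibitor, by 0.90. Mdm4 was higher at both times, by 0.61 and 0.64, and Ccng1 and Zmat3 were lower at 8 h, by -0.37 each. Of the 2 lower calls at 8 h, 1 was left without wild-type replicate 2 or 3 or Raptor-deficient replicate 2, 3 or 4.

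The samples carried the markers of T cells, and other lists moved with genotype. Of 9 measured T cell markers none lay under the median of all values in any group, and Cd3e was between 10.45 and 10.97 in all samples. The sample means of the T cell list were 9.97 to 10.03 in wild-type and 9.83 to 9.92 in Raptor-deficient cells before stimulation, with 3 of 9 called lower (1.24% of all genes). At 8 h they were 10.12 to 10.25 and 9.78 to 9.93, with 3 of 9 called lower (8.77% of all genes), and at 24 h 10.47 to 10.56 and 10.48 to 10.56, with 1 called higher and 1 lower. The mean of 13 B cell markers was 4.88 to 5.01 in wild-type and 5.15 to 5.56 in Raptor-deficient samples at 8 h, and 4.75 to 5.03 against 5.18 to 5.84 at 24 h, with 2 and 5 of 13 called higher (4.14% and 8.35% of all genes); 7 to 9 of the 13 lay under the median of all values. The mean of 14 myeloid markers was 4.61 to 4.70 against 4.93 to 5.01 at 8 h and 4.53 to 4.57 against 4.65 to 4.85 at 24 h, with 2 and 4 called higher. The part of these cells in the results for ribosomal protein genes was not tested. The protocol took 20 ng of total RNA per sample, so a value is a share of the RNA, and fewer cells of a type cannot be told apart from less of an mRNA per cell.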

How the data were processed

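RNA of 24 samples of sorted mouse CD4 T cells was measured on Affymetrix HT MG-430 PM arrays. The deposited values are log2 intensities, made with RMA and Partek 6.5 per the submitters' processing notes; array medians lay between 5.15 and 5.29. The platform annotation gave 1 gene for 28898 of 45141 probe sets, several for 551 and no entry for 15692; probe sets of the last 2 kinds were left out. A gene's brightest probe set (mean of 24 arrays) stood for it, with no level filter. The number of arrays limits the precision.

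A linear model with 6 group means (18 residual degrees of freedom) was fitted to all 17097 genes with limma 3.58.1 in R 4.3.3, followed by empirical Bayes moderation. P-values are two-sided and adjusted by Benjamini-Hochberg within each of 12 comparisons; called means an adjusted p under 0.05. Errors after a fold are standard errors. The script was tested on simulated data. Named members were, for the genotype comparisons and the wild-type responses, up to 6 with the largest called rises and up to 6 with the largest called falls, and a fixed set with Rps6, the stalk and the paralogues with their main genes; from each list up to 4 called genes with the smallest p could be named. Rps26, Rpl35a, the marker genes and the members named only for a reversal, for a motif or for another probe set were named after their values were seen. Members, lists and tests were chosen with earlier results of these data known. Alternatives were another rule for several probe sets, 2 scalings, weights, priors, a filter on dim genes, a replicate block, and samples left out. Start windows are from RefSeq.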

Additional observations from a re-analysis of the deposited data

Results flagged for a closer look

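The response to stimulation differed between genotypes for 4 members by the test of the difference itself (limma, adjusted over all genes). At 8 h it was smaller in Raptor-deficient cells for Rps27l (-0.942 on the log2 scale, adjusted p = 0.000265), Rpl7l1 (-0.854, adjusted p = 0.00115) and Rps19bp1 (-0.615, adjusted p = 0.00477). At 24 h it was smaller for Rpl7l1 (-0.649, adjusted p = 0.00492), Rps27l (-0.575, adjusted p = 0.00815) and Rps19bp1 (-0.477, adjusted p = 0.0143), and it was in the other direction for Rps15a (0.753, adjusted p = 0.00234). The value for the dim Rps15a ran from 0.58 to 0.88 over the alternatives. Unstimulated Raptor-deficient replicate 1, which enters it, stood apart for this gene, as given next.

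Of 186 groups of 4 samples checked for 31 named members, 10 held a sample set apart from the other 3, where chance gives about 1 in 20. The measure was the gap to the nearest sample as a share of the group's range, 0.83 to 0.957 in these 10. Some of these gaps are small on the log2 scale. In unstimulated Raptor-deficient cells the sample set apart was replicate 1 for Rpl17 (12.72, the others at 12.44 to 12.48), Rps6 (13.39, the others at 13.06 to 13.09) and Rps15a (5.24, the others at 5.89 to 6.02). In unstimulated wild-type cells it was replicate 4 for Rpl17 (12.21, the others at 12.38 to 12.41), Rplp0 (12.37, the others at 12.49) and Rps6 (12.99, the others at 13.02). At 8 h it was wild-type replicate 2 for Rpl39l (5.45, the others at 5.61 to 5.63) and wild-type replicate 1 for Rps15a (6.03, the others at 6.18 to 6.21). It was also Raptor-deficient replicate 2 for Rplp2 (13.32, the others at 13.26 to 13.27) and Raptor-deficient replicate 1 for Rps29 (13.14, the others at 13.25 to 13.27) at 8 h.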

How the results depend on the processing

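Of 148 called gene results, 75 kept call and direction in all alternatives run for them, 11 other settings and 24 single samples left out. Over 8519 gene results under alternatives, 8019 had the same direction and side of the threshold, 396 lost the call, 82 gained it and 22 reversed; the cause was not tested. The 4 samples a group limit the precision. Counts of called members that moved by over 1.5 times are given by comparison, without the share of all genes called in the same alternative. Between unstimulated genotypes the count was 1 with a trend and robust prior and 2 without unstimulated Raptor-deficient replicates 2 and 3, and 0 to 2 with single samples left out. At 8 h between genotypes it was 20 with array weights and 20 with the trend, and at 24 h 24, 22 and, without replicate 1 of both 24 h groups, 6. In wild-type cells it was 45 at 8 h with cyclic loess, and for 24 h against 8 h 15 with the mean of all probe sets, 9 without probe sets of suffix x, 10 with array weights and 12 with the trend. In Raptor-deficient cells it was 30 (mean of probe sets) and 7 (only the compared groups) at 8 h, and 10 to 16 with single samples left out. It was 42 and 17 at 24 h, and for 24 h against 8 h 16 (mean of probe sets), 14 (array weights) and 18 (trend). For the difference of responses it was 5 at 8 h with median centring and 5 without replicates 2 and 3, and for 24 h against 8 h 1 with array weights and 0 to 1 with single samples left out.

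With cyclic loess the wild-type response at 8 h reversed for Rps26 (-0.0017), Rpl28 (-0.027), Rpl36 (-0.038) and Rpl15 (-0.0084), and at 24 h for Rpl12 (-0.20), Rpl36 (-0.013), Rps13 (-0.013), Rpl10 (-0.18) and Rps25 (-0.063). In Raptor-deficient cells at 24 h it reversed for Rpl34 (-0.0047) and Rps25 (-0.020). With the mean of all probe sets the wild-type response reversed for Rps6 (0.26 at 8 h, 0.18 at 24 h), Rpl17 (0.0089 and 0.17) and Rpsa (0.57 at 8 h), the response of Raptor-deficient cells for Rpl13 (-0.51 at 8 h, -0.34 at 24 h), and the difference between genotypes at 24 h for Rpl22 (0.33). Without suffix x Rpl17 gave -0.043 between genotypes at 24 h, and 0.42 and 0.96 in wild-type cells at 8 h and 24 h.

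Same-numbered replicates deviated together with correlations of -0.0689 to 0.251, and in no comparison did every pair exceed 0.1, so the numbers were not taken as a pairing. Between genotypes all 12 correlations were above 0, and replicate 1 of both 24 h groups shared liver transcripts; whether same-numbered samples share a preparation is not given in the sources used here. With the replicate number as a block 12 members were called between genotypes at 8 h and 12 at 24 h, against 13 and 13 without it, and 22 and 34 in wild-type cells against 25 and 34.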
